A study of Mus musculus with 6 samples.

Results

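Chromatin accessibility was examined at 10 genes of the transforming growth factor beta (TGF-beta) pathway in skeletal stem and progenitor cells (SSPCs). The genes were the ligands Tgfb1, Tgfb2 and Tgfb3, the receptors Tgfbr1, Tgfbr2 and Tgfbr3, and the signal transducers Smad2, Smad3, Smad4 and Smad7, 10 of 21853 protein-coding genes with an annotated transcription start site (TSS). They were chosen by name for their place in the pathway. The rule used no measured value, but earlier results of these data were known when it was set. SSPCs had been grown out of the tibial and femoral bone marrow of untreated C57BL/6 mice, from 3 or more animals per the labels, and used at the first passage. The design held 3 libraries labelled young and 3 labelled middle-aged, each profiled by ATAC-seq, in which a transposase cuts open DNA and leaves sequencing adapters there. How many animals went into each library was not stated, so the spread between libraries may be in part technical. SSPCs were obtained by plating marrow, with no sorting step named in the labels.

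TGF-beta ligands are secreted in a latent form and stored in bone matrix, from which they are released as bone is resorbed. An active ligand binds the type II receptor (Tgfbr2), which recruits and phosphorylates the type I receptor (Tgfbr1), while the co-receptor betaglycan (Tgfbr3) presents ligand, above all the Tgfb2 product. The type I receptor phosphorylates Smad2 and Smad3, which join Smad4 and enter the nucleus, and Smad7 is an inhibitor that is itself induced by the pathway. In the skeleton this signal is known for recruiting progenitors to sites of resorption and for restraining late osteoblast maturation.

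Accessibility was read from the peaks called in each library by the study. Young 3 stood apart before any gene was considered. It had the shortest list, 27628 peaks against 35953 and 43941 in young 1 and 2 and 46364 to 48344 in the middle-aged libraries. Its genome-wide background was also the lowest, 1.65 extended reads per base against 2.40 to 3.75 in the other libraries. The highest background, 3.75, was that of young 1, whose list was shorter than those of the middle-aged libraries (background 2.40 to 2.79). Of the 10 SSPC marker genes, Lepr, Prrx1 and Vcam1 had no TSS peak in any library, while Kitl, Foxc1 and Ebf3 had one in all 6 and 3 to 7 of the 10 markers had one in a given library. Of 12 hematopoietic markers, 6 or 7 had a TSS peak in each library, among them the leukocyte gene Ptprc and the macrophage genes Adgre1 and Cd68 in all 6, and among those with none in any library were Gata1, Cd3e, Cd79a and Mpo. Of 8 endothelial markers, 2 to 4 had a TSS peak in the young and 4 to 6 in the middle-aged libraries. Because these are bulk samples, fewer cells of a type and less accessibility per cell cannot be told apart, and the part of other cell types in the values below was not tested.

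The sequences below are the parts of 300-base windows around the mean peak summit that lie outside annotated exons. They are mm10 (GRCm38) reference sequence from RefSeq on the strand of the gene, with matches to the searched motifs in capitals. The motifs were GGGCGG (GC box), CCAAT, CCCNNGGG (core of early B cell factor sites), TGGGAA (RBPJ, the nuclear effector of Notch), TGANTCA (AP-1), TGTGGT (RUNX), CAGACA (the CAGA box bound by Smad3 and Smad4), GTCTAGAC (the palindromic Smad element) and TGACGTCA (cyclic AMP response element), on both strands, and overlapping matches were kept. The first 3 are start-site regions of a ligand, a receptor and a Smad, one from each role in the pathway, with mean ranks from 76.1 to 98.9 among the promoters described below. Tgfb1 lies at chr7:25686744-25687001 on the plus strand, Tgfbr1 at chr4:47353002-47353221 on the plus strand and Smad3 at chr9:63758034-63758333 on the minus strand.
Tgfb1: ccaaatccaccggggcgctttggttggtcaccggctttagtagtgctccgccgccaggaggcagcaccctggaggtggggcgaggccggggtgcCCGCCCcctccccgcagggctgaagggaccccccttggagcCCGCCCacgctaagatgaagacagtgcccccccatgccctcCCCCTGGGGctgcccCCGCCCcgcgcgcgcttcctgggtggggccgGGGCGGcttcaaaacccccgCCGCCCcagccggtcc
Tgfbr1: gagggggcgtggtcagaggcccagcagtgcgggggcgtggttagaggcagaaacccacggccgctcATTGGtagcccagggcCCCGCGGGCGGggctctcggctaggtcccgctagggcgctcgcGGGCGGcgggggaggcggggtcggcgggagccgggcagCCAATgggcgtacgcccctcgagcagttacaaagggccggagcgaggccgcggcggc
Smad3: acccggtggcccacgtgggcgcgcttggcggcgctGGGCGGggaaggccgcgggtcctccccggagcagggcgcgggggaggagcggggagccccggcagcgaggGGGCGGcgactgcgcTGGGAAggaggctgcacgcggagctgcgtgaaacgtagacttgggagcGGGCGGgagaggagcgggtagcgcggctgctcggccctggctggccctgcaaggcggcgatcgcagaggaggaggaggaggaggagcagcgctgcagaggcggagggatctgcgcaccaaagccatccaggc

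GC boxes were the commonest match in these stretches, with 5 in Tgfb1, 2 in Tgfbr1 and 3 in Smad3. The Tgfb1 stretch also held 2 overlapping EBF cores. The Tgfbr1 stretch also held 2 CCAAT matches, 1 on each strand, and an EBF core that overlapped a GC box, and the Smad3 stretch held 1 RBPJ match. Such matches are common in promoters: among the 10372 start-site regions called in all 6 libraries, a 300-base window held a GC box in 72.7%, CCAAT in 39.5%, an EBF core in 19.8% and an RBPJ match in 20.4%. Of the 12 start-site windows in the 10 loci, the neighbouring B9d2 start among them, 10 held a GC box and 4 an EBF core. The palindromic Smad element was found in 1 of the 12, the Smad7 promoter window, against 0.202% of the 10372. Their median GC content was 71.0%, against 65.0% over all start-site windows.

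Away from start sites the family's windows looked different. The next 2 sequences are the region 18.9 kb upstream of Tgfbr2, shown because it was the single region of the family called in every middle-aged and no young library, and the strongest intronic region of Tgfbr2. Both lie on chromosome 9 and are given on the minus strand, at chr9:116194087-116194386 and chr9:116145257-116145556.
Tgfbr2 upstream: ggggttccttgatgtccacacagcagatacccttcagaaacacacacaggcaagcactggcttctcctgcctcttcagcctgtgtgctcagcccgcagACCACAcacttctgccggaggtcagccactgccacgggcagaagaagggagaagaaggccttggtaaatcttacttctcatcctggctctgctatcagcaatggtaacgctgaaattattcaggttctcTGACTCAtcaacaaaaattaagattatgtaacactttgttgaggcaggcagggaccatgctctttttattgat
Tgfbr2 intron: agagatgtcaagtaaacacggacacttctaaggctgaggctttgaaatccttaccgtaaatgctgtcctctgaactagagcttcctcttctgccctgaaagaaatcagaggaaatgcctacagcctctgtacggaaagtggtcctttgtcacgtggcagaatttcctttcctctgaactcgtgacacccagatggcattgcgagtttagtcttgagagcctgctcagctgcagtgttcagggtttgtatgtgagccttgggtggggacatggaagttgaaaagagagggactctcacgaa

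The upstream sequence held 1 AP-1 match and 1 RUNX match. An AP-1 match was found in 17.9% and a RUNX match in 32.4% of the 1411 regions called in all middle-aged and no young libraries, and in 25.8% and 31.7% of the 12031 regions away from start sites called in all 6. The intronic sequence held none of the 9 motifs. Of the 14 windows away from start sites in the 10 loci, 3 held an AP-1 match, 5 a RUNX match and 3 a CAGA box, the last against 28.7% of the 12031.

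The first question was whether the family's promoters were open in SSPCs and whether that differed by age. All 10 genes had a called peak within 1 kb of a TSS in all 6 libraries, whereas 10569 of the 21853 genes did, and each library had a TSS peak at a mean of 53.6% ± 3.72 (young) or 57.6% ± 0.328 (middle-aged) of genes (SD, n = 3 each). None of the 10 was present in at least 2 more libraries of one age, against 4.51% of the 13447 genes with any TSS peak for middle-aged and 0.178% for young. What varied was how strong the peaks were. Strength was expressed as the percentile rank of a gene's best TSS peak within its own list by −log10 q, where 100 is the most significant peak, and as fold enrichment, the ratio of reads at the summit to local background.

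The strongest promoter peak belonged to Tgfbr1, which ranked highest of the 10 genes in 6 of 6 libraries, and the weakest to Tgfb2, which ranked lowest in 6 of 6. By mean rank over the 6 libraries the order was Tgfbr1 (98.9), Smad2 (97.7), Smad4 (96.6), Tgfbr2 (90.4), Smad3 (86.4), Smad7 (82.8), Tgfb1 (76.1), Tgfbr3 (66.3), Tgfb3 (61.5) and Tgfb2 (33.8). Among neighbours in this order, the ranges over libraries were separate for Smad4 and Tgfbr2 and overlapped for every other pair. In all 6 libraries each of the 3 ligands ranked below Tgfbr1, Tgfbr2, Smad2, Smad3 and Smad4. Compared with the 10569 genes that had a TSS peak in every library, Tgfbr1 stood at the 95.8th percentile of mean rank, Smad3 at the 53.8th and Tgfb2 at the 1.55th.

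**Figure D1:**
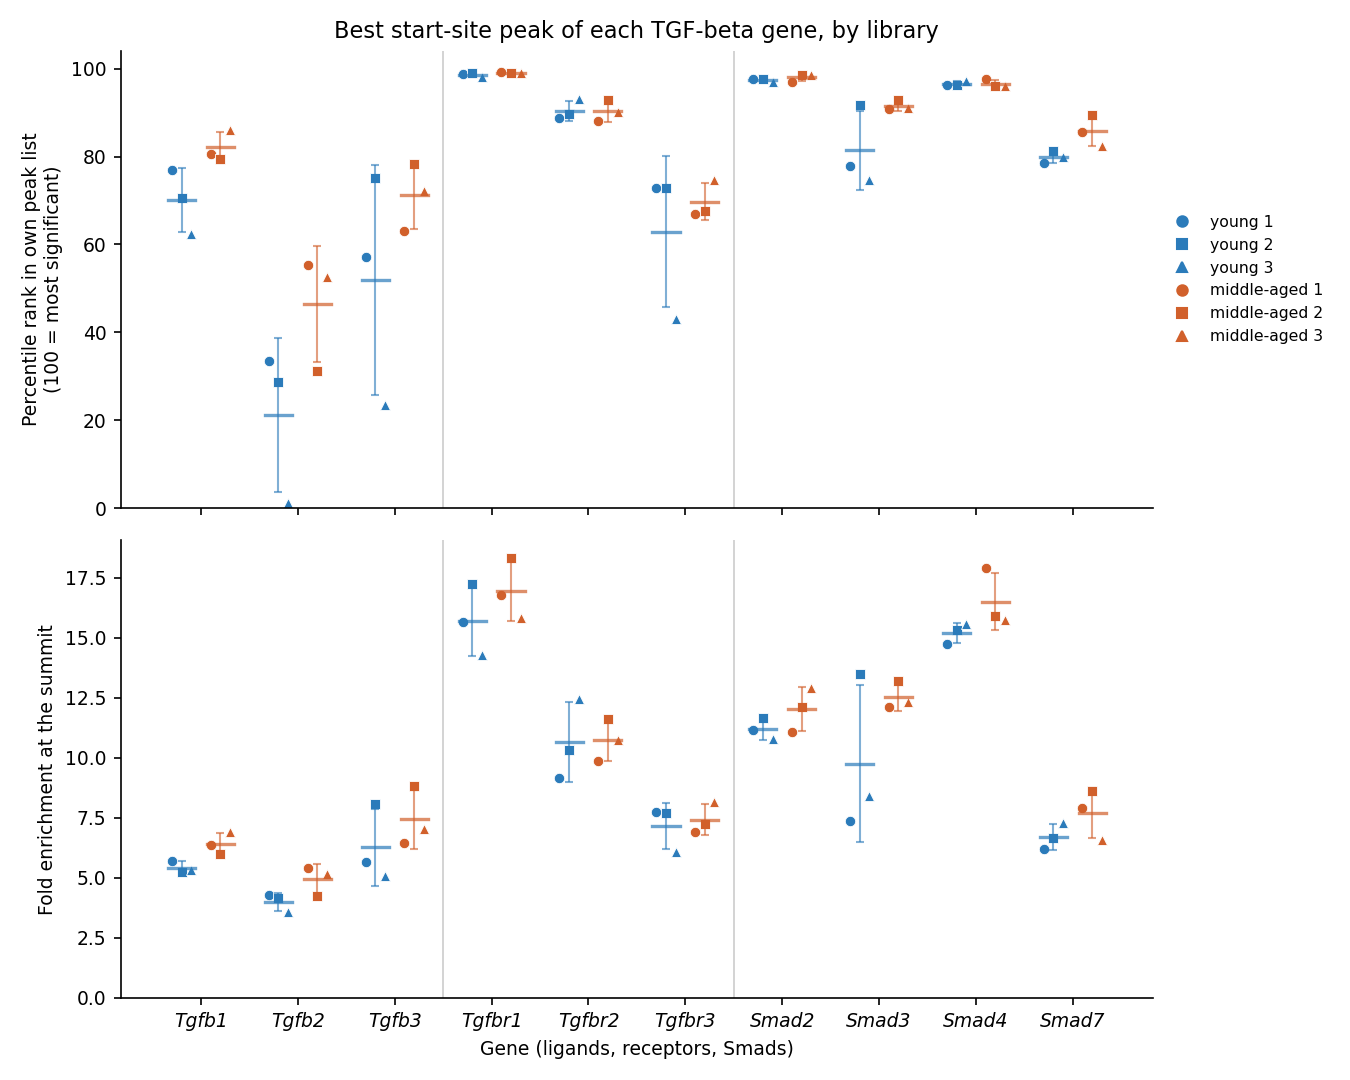
Percentile rank (upper panel) and fold enrichment (lower panel) of the best peak within 1 kb of a start site of each gene, 1 point per library with the mean (bar) and SD (whiskers) of each age group. In the upper panel Tgfbr1, Smad2 and Smad4 sit near the top in every library, and the ligands and Tgfbr3 spread widely, with the young 3 point lowest for Tgfb2 (1.09) and Tgfb3 (23.5).

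Among the ligands, Tgfb1 encodes the isoform most abundant in bone matrix. In libraries 1, 2 and 3 its TSS peak ranked 77.0, 70.7 and 62.5 (young) against 80.7, 79.5 and 86.0 (middle-aged). Every middle-aged library was above every young library, and the means were 70.1 ± 7.31 and 82.1 ± 3.46 (SD, n = 3 each), a difference of 12.0 (exact permutation p = 0.1, two-sided, and 3 against 3 allows none smaller). Fold enrichment at the same peak was 5.72, 5.24 and 5.31 in young and 6.36, 5.99 and 6.90 in middle-aged libraries. These values also did not overlap between the ages.

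Tgfb2 had the weakest promoter peak, with its summit on average 238 bp downstream of the nearest start, in the 5′ untranslated part of the gene. The rank was 33.5, 28.7 and 1.09 in young and 55.3, 31.2 and 52.7 in middle-aged libraries. The groups overlapped, and the difference of 25.3 had an exact permutation p of 0.2. The lowest value was that of young 3, and without it the difference was 15.3.

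Tgfb3 ranked 57.2, 75.0 and 23.5 in young and 63.1, 78.3 and 72.1 in middle-aged libraries. Its summit lay upstream of the start, at −0.52 kb. The groups overlapped (difference 19.2, exact permutation p = 0.3), and the size rested on single young libraries. Without young 3 the difference was 5.01, and without young 2 it was 30.8, with the groups then separate.

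At the start sites of the receptors the ranks of the age groups overlapped. Tgfbr1, the kinase that phosphorylates Smad2 and Smad3, ranked 98.7, 99.1 and 98.2 in young and 99.1, 99.1 and 99.0 in middle-aged libraries, a difference of 0.43 (exact permutation p = 0.3). Its fold enrichment was 15.7 ± 1.49 in young and 17.0 ± 1.27 in middle-aged libraries (SD, n = 3 each). Tgfbr2, the ligand-binding kinase, ranked 88.7, 89.7 and 93.0 in young and 88.0, 92.9 and 90.2 in middle-aged libraries, with means 90.5 and 90.4 (exact permutation p = 0.9). Tgfbr3 ranked 72.8, 72.8 and 43.0 in young and 67.0, 67.6 and 74.6 in middle-aged libraries (difference 6.86, exact permutation p = 0.8). For Tgfbr3 the sign rested on young 3, without which the middle-aged mean was lower by 3.06 percentile points (a difference of −3.06).

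The receptor-activated and common Smads were high in every library. Smad2 ranked 97.7, 97.6 and 97.0 in young and 96.9, 98.5 and 98.5 in middle-aged libraries (difference 0.57, exact permutation p = 0.4). Smad4, the shared partner of the Smad complexes, ranked between 96.0 and 97.5 in all 6 libraries, and its group means differed by −0.030 (exact permutation p = 1.0). Smad4 fold enrichment was 14.7, 15.3 and 15.6 in young and 17.9, 15.9 and 15.7 in middle-aged libraries, without overlap.

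Smad3 ranked 77.7, 91.7 and 74.7 in young and 90.7, 92.9 and 91.0 in middle-aged libraries. Young 2 lay within the middle-aged range and the other young libraries below it, so that the groups overlapped (difference 10.1, exact permutation p = 0.3). Without young 2 the difference was 15.3, with no overlap. Fold enrichment was 7.35, 13.5 and 8.41 in young and 12.1, 13.2 and 12.3 in middle-aged libraries, young 2 being the highest of the 6 and the other young libraries the lowest.

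Smad7, the inhibitory Smad, ranked 78.6, 81.2 and 79.8 in young and 85.5, 89.4 and 82.4 in middle-aged libraries, again without overlap (difference 5.90, exact permutation p = 0.1). Smad7 had 2 TSS peaks in every library, with summits at −0.23 and −0.81 kb. The nearer one was the better in 5 libraries and the farther one in middle-aged 3, and at the nearer peak middle-aged 3 ranked 82.2, still above the young libraries. At the farther peak the ages overlapped, with ranks of 76.1, 74.8 and 58.8 in young and 73.9, 70.4 and 82.4 in middle-aged libraries.

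In all, 2 of the 10 genes (Tgfb1 and Smad7) had TSS ranks that did not overlap between the ages with middle-aged higher, against 30.6% of the 10569 genes, and 0 had young higher, against 0.274%. The median difference was 6.38 for the 10 genes and 4.97 for all 10569, and 8 of the 10 and 93.9% of all genes were higher in middle-aged libraries. Fold enrichment did not overlap for 2 of the 10 (Tgfb1 and Smad4, middle-aged higher), against 38.5% of all genes, and for 0 with young higher, against 0.114%. The median difference in fold enrichment was smaller for the 10 genes, 0.991 against 1.78 for all 10569. It was above 0 for all 10 and for 96.1% of genes. Without young 3 the median rank difference was 3.10 for the 10 genes and 2.39 for 11413 genes. Tgfb1 and Smad7 still did not overlap, 2 of 10 beside 32.7% of genes with middle-aged higher and 2.23% with young higher. Percentile ranks depend on the length of a list, and the middle-aged lists were the longer ones. With every list reduced to its best 27628 peaks, the median difference was 0.09 over the 9 genes still present in all 6 libraries and 0.855 over 9971 genes. No gene of the family then had separate ranks, against 9.51% of genes with middle-aged higher and 3.71% with young higher. Tgfb2 was the gene lost, being then present in 2 libraries of each age.

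The same peaks were next merged across libraries into regions, and the fold enrichment of regions called in all 6 libraries was compared between ages with limma, on the log2 scale after the median of each library was set equal. The 10 loci, each a gene body with 20 kb upstream, held 26 such regions, 12 of them at a TSS. None passed an adjusted p of 0.05, and none reached an unadjusted p under 0.05 in either direction. Across all 22403 regions 1 was called higher in middle-aged libraries (0.00446%) and 0 lower (0%), and at an unadjusted p under 0.05 the shares were 3.39% higher and 4.7% lower. The log2 differences of the 26 ran from −0.28 to 0.19 with standard errors from 0.088 to 0.21, and 9 of 26 were above 0. Their median was −0.095, against −0.023 over all 22403 regions.

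The difference nearest the threshold was at the Smad3 intronic region 41.7 kb into the gene. It was −0.28 ± 0.15 (SE), with a 95% interval from −0.60 to 0.030 (limma adjusted p = 0.648), and −0.050 before the library medians were set equal. At the Tgfb1 promoter the difference was 0.0078 with an interval from −0.36 to 0.37 (limma adjusted p = 0.994), and in the Tgfb1 intron 0.051 with an interval from −0.26 to 0.36 (limma adjusted p = 0.954). At the Smad4 promoter, whose deposited fold enrichment was higher in every middle-aged library, it was −0.12 with an interval from −0.31 to 0.075 (limma adjusted p = 0.767). At the strongest Tgfbr2 intronic region it was −0.10 with an interval from −0.42 to 0.21 (limma adjusted p = 0.892). Before the medians were set equal, fold enrichment was higher in middle-aged libraries by a median of 0.21 over all regions and 0.14 over the 26 (24 of 26 above 0), and again no region of the family was called. The library medians over shared regions were 2.84, 3.11 and 2.88 in young and 3.17, 3.19 and 3.17 in middle-aged libraries (log2). Young 2 thus lay closer to the middle-aged libraries than young 1 and young 3 did.

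**Figure D2:**
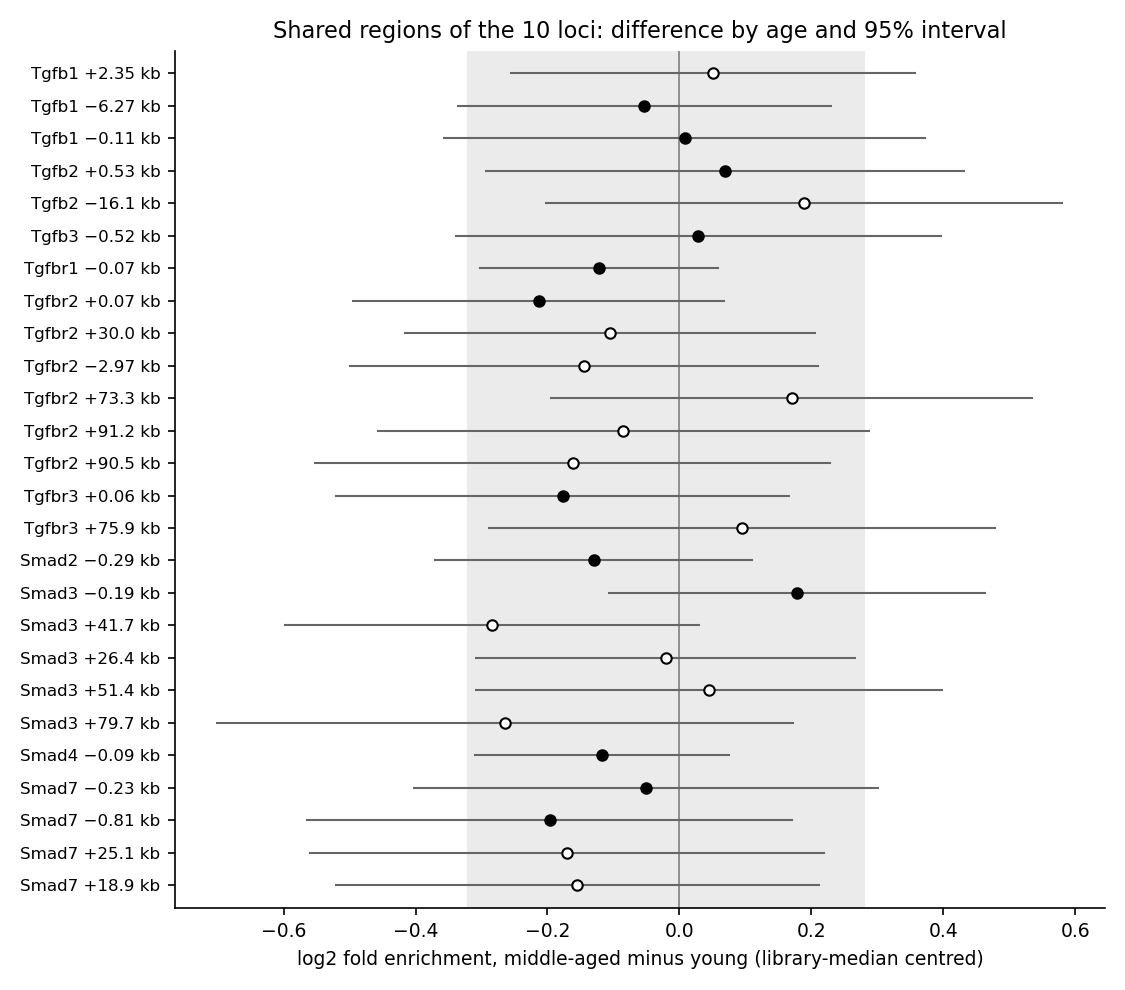
Log2 fold enrichment, middle-aged minus young, at the 26 regions of the 10 loci called in all 6 libraries, named by gene and distance from its 5′ end in kb, with 95% intervals from limma. Filled points are at a start site and open points are not, the grey band holds the central 90% of all 22403 regions (5th percentile −0.32, 95th percentile 0.28), and every interval of the family includes 0.

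The second question was how many accessible regions the loci held beyond their promoters. Over the 10 loci, 44, 52 and 29 peaks were called in young and 53, 55 and 60 in middle-aged libraries, 41.7 ± 11.7 and 56.0 ± 3.61 (SD, n = 3 each), a ratio of 1.34. The whole lists differed by a ratio of 1.32, and the loci held 0.115% ± 0.0091 of the young and 0.119% ± 0.0050 of the middle-aged lists (SD, n = 3 each), a difference smaller than the spread between libraries. Without young 3 the difference in locus peaks fell from 14.3 to 8.

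**Figure D3:**
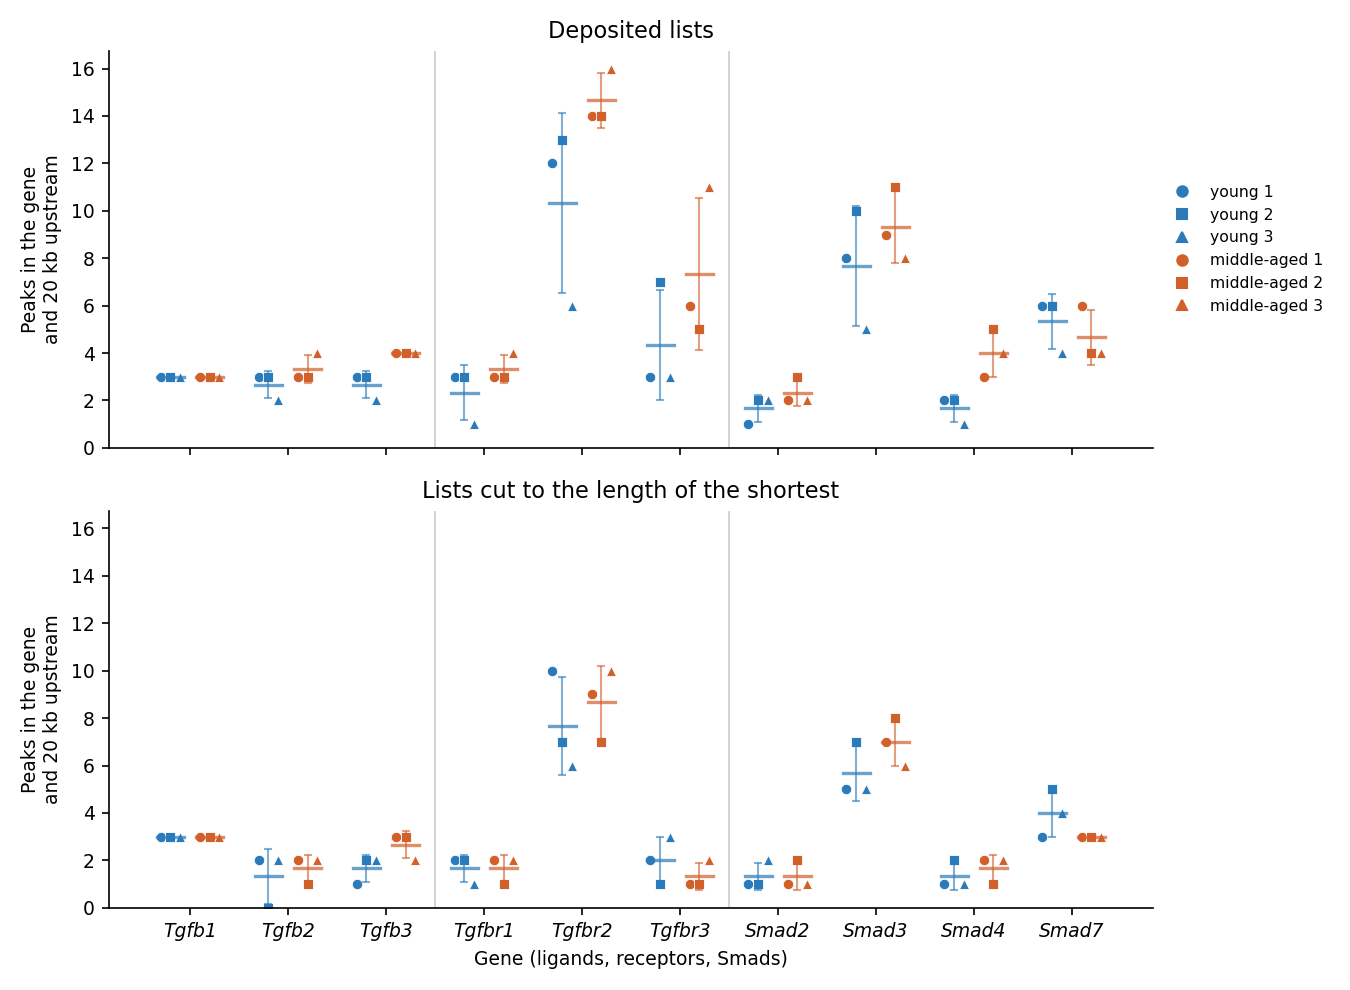
Number of called peaks in each gene body and the 20 kb upstream of it, 1 point per library with mean and SD, for the deposited lists (upper panel) and for lists reduced to the length of the shortest (lower panel). Tgfbr2 and Smad3 hold the most peaks in both panels, and the separation of ages at Tgfb3, Tgfbr2 and Smad4 in the upper panel is absent in the lower one.

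Tgfbr2 held the most peaks of the family, 12, 13 and 6 in young and 14, 14 and 16 in middle-aged libraries. Its mean of 12.5 peaks exceeded that of 99.3% of the 16949 loci with any peak, and its density of 11.3 per 100 kb that of 93.3%, where the median locus had 2 peaks and 3.94 per 100 kb. Every middle-aged library was above every young library (difference 4.33, exact permutation p = 0.1), and without young 3 the difference was 2.17. Smad3 was second with 8, 10 and 5 in young and 9, 11 and 8 in middle-aged libraries, and these overlapped (exact permutation p = 0.5). By density Smad7 came next to Tgfbr2, with 10.3 peaks per 100 kb, and it was the one locus with fewer peaks on average in middle-aged libraries, 6, 6 and 4 in young against 6, 4 and 4 (exact permutation p = 1.0).

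Counts did not overlap between ages at 3 of the 10 loci, all with middle-aged higher: Tgfbr2, Tgfb3 (3, 3 and 2 against 4, 4 and 4) and Smad4 (2, 2 and 1 against 3, 5 and 4). This compares with 6.6% of the 16949 loci for middle-aged higher and 0.0944% for young higher, the latter against 0 of 10. Loci differ in how many peaks they hold, and whether that had a part was not tested. With lists of equal length, 0 of 10 loci were separate in either direction, against 1.07% and 0.756% of loci, and Tgfbr2 then held 10, 7 and 6 peaks in young and 9, 7 and 10 in middle-aged libraries. The counts of all 3 loci also overlapped with 5 kb upstream in place of 20 kb (exact permutation p = 0.3 for Tgfbr2, 0.4 for Tgfb3 and 0.3 for Smad4). With peaks under a −log10 q of 5 left out, those of Tgfbr2 (exact permutation p = 0.3) and Smad4 (0.6) overlapped as well. The Tgfb3 counts included a peak 3.51 kb upstream at the TSS of Ift43, called in 1 young and 3 middle-aged libraries. It cannot be assigned to Tgfb3 by position, and without it the Tgfb3 counts overlapped. Tgfb1 held 3 peaks in every library in the deposited and the equal lists. Tgfbr3, the longest gene of the family, had 3, 7 and 3 in young and 6, 5 and 11 in middle-aged libraries, and its difference of 3.00 became −0.67 with equal lists.

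Merged over libraries, the loci held 73 regions, 13 at a TSS of the gene itself, 2 at the TSS of a neighbour (B9d2 near Tgfb1 and Ift43 near Tgfb3), 44 in introns, 2 in exons, 11 upstream and 1 at the 3′ edge of a gene. The 2 exonic summits lay in untranslated parts of Tgfb3 and Tgfbr2. Of the 73, 26 (35.6%) were called in all 6 libraries, close to 35.1% of all 63840 regions, and 46.2% of the 26 were at a TSS, against 46.3%. More middle-aged than young libraries had a peak in 38 of the 73, against 47.1% of all regions, and more young libraries in 3, against 9.02%. Young 3 was the sole library without a peak in 9 of the 73 (12.3%), against 8.60% of all regions.

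**Figure D4:**
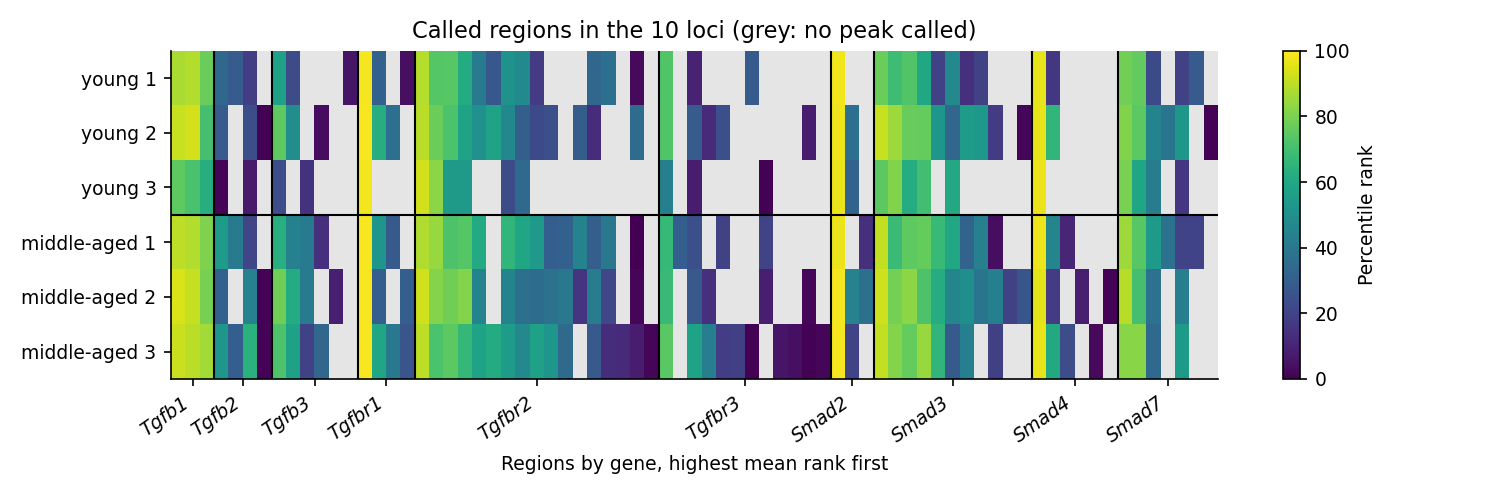
The 73 regions of the 10 loci (columns, grouped by gene and ordered by mean rank) in the 6 libraries (rows), coloured by percentile rank in the library's own list, with grey where no peak was called. Promoter regions of Tgfbr1, Smad2 and Smad4 are bright in all rows, young 3 has the most grey cells, and the column at chr9 upstream of Tgfbr2 is the single one filled in all middle-aged and no young rows.

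A single region, 18.9 kb upstream of Tgfbr2, was called in all 3 middle-aged and no young libraries, 1 of 73 against 2.21% of all regions. It spanned chr9:116194029-116194379, in no gene body, and ranked 31.0, 40.0 and 34.6 in middle-aged 1, 2 and 3, below the middle of each list. Those lists held 46364, 46745 and 48344 peaks, and in each the region lay outside the best 27628. With lists of equal length it was therefore called in no library of either age. No region of the family was called in all young and no middle-aged libraries, against 0.036% of all regions.

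Around Tgfbr2 the shared regions were spread over the whole gene. After the promoter, the highest mean ranks were in the intron at +30.0 kb (78.6), upstream at −2.97 kb (71.0) and in the intron at +73.3 kb (65.9), distances being from the 5′ end of the gene. The intronic region at +30.0 kb ranked 73.6, 77.7 and 82.7 in young and 84.7, 81.3 and 71.6 in middle-aged libraries, with full overlap. Upstream at −2.97 kb, the ranks were 74.2, 71.8 and 54.5 in young and 72.1, 78.3 and 74.8 in middle-aged libraries. At +73.3 kb they were 61.7, 57.5 and 54.2 in young and 73.8, 81.6 and 66.4 in middle-aged libraries, every middle-aged value lying above every young one. Ranks were separate in this way, middle-aged higher, at 3 of the 26 shared regions of the family (this one, the promoter of Tgfb1 and the Smad7 promoter peak at −0.23 kb), against 24.3% of the 22403, and with young higher at 0, against 0.495%. Regions at +14.2 and +22.2 kb were called in young 1 and 2 and all middle-aged libraries but not in young 3.

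**Figure D5:**
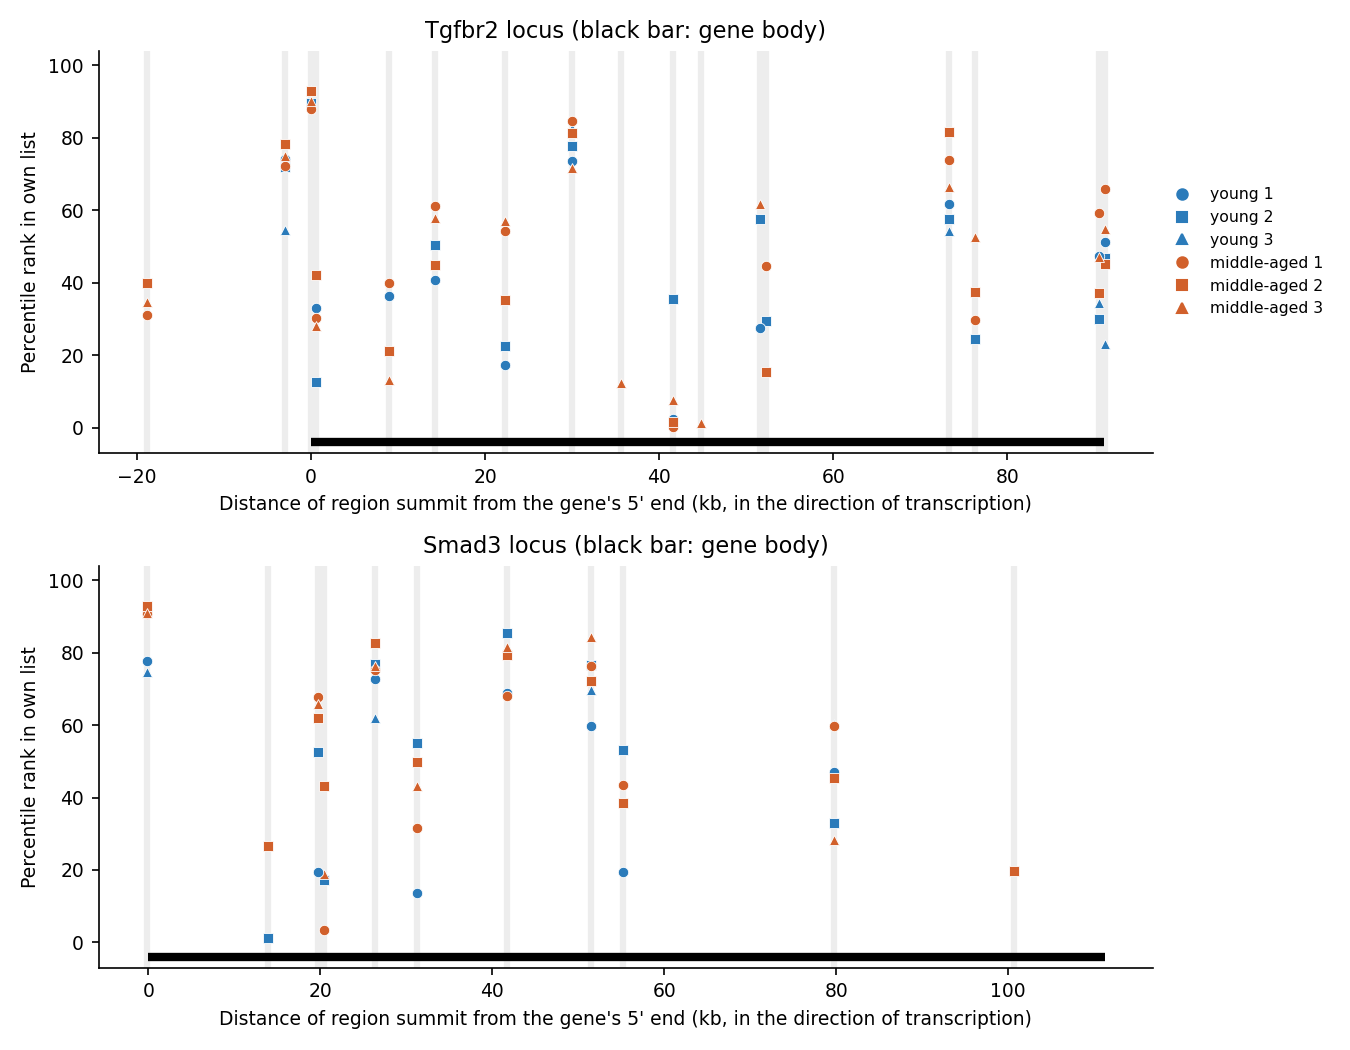
Percentile rank of each called region of the Tgfbr2 (upper panel) and Smad3 (lower panel) loci against the distance of its summit from the 5′ end of the gene in kb, 1 point per library with a peak there. Both genes carry strong shared regions inside their introns, and the leftmost Tgfbr2 region has points from middle-aged libraries only.

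Smad3 carried 3 intronic regions with mean ranks above those of the promoters of Tgfb2, Tgfb3 and Tgfbr3. They lay at +41.7 kb (mean rank 77.4), +26.4 kb (74.3) and +51.4 kb (73.1) and were called in all 6 libraries. The first ranked 68.9, 85.4 and 81.2 in young and 68.1, 79.2 and 81.6 in middle-aged libraries, with overlap. In young 3 it ranked above the Smad3 promoter itself (81.2 against 74.7).

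At Tgfb1 the strongest region of the gene was not the promoter. An intronic region at +2.35 kb ranked 87.3, 91.6 and 75.0 in young and 90.1, 94.2 and 92.0 in middle-aged libraries, above the promoter peak in 6 of 6 libraries. Its window had 68.0% GC and 3 GC boxes, while the median of shared regions away from start sites was 48.7% GC. The peak 6.27 kb upstream of Tgfb1, mean rank 87.0, lay at the TSS of B9d2 and cannot be assigned to Tgfb1 by position.

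The remaining genes had weaker or less shared regions outside their promoters. By mean rank over the libraries with a peak, the best were at +2.28 kb of Tgfb2 (33.3, in 1 young and 2 middle-aged libraries), −12.6 kb of Tgfb3 (47.1, inside Ift43 and absent from young 3), −19.5 kb of Tgfbr1 (46.9, absent from young 3) and +67.0 kb of Tgfbr3 (30.1, in 1 middle-aged library). The best of those called in all 6 libraries were at −16.1 kb for Tgfb2 (29.7, inside the Rrp15 gene) and +75.9 kb for Tgfbr3 (26.1). Smad2 had one at −13.5 kb (33.3, in 2 libraries of each age), Smad4 one at +29.4 kb (41.2, absent from young 3) and Smad7 one at +25.1 kb (39.2). Tgfbr3 had 12 regions, of which 5 were called in a single library.

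The wider pathway was read from 40 further genes in 5 groups. A TSS peak was present for 30, 33 and 25 of the 40 in young and 33, 30 and 33 in middle-aged libraries, and 25 of the 40 had one in all 6. Of these 25, 9 had ranks that did not overlap with middle-aged higher (36.0%, beside the 30.6% of all genes given above) and 0 with young higher, and their median difference was 9.19. None of these could pass 0.05 in the exact test, and all 9 stood at its smallest p of 0.1.

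Genes of ligand latency and activation had 7 of 12 members with a TSS peak in all 6 libraries. Of those 7, 2 did not overlap, beside 30.6% of all genes with middle-aged higher. Ltbp1, which binds latent TGF-beta to the matrix, ranked 40.6, 29.8 and 1.36 in young and 40.7, 55.6 and 50.3 in middle-aged libraries. The lowest middle-aged and the highest young value were nearly equal. Fbn1, the microfibril protein fibrillin-1, ranked 5.40, 3.51 and 7.57 in young and 30.8, 14.2 and 17.1 in middle-aged libraries, low in all lists. Lrrc32, which holds latent ligand at the cell surface, had a TSS peak in 1 young and 3 middle-aged libraries. It was the 1 of the 40 genes that differed by at least 2 libraries, beside 4.51% of all genes with any TSS peak for middle-aged and 0.178% for young. With lists of equal length its difference was 0.

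Of 5 adaptors and genes of the non-Smad branch, all had a TSS peak in every library and 3 did not overlap, beside 30.6% of all genes. A group this small was not tested against that share. Trim33, a ubiquitin ligase that binds Smads, ranked 69.3, 74.8 and 51.9 in young and 89.6, 81.3 and 81.1 in middle-aged libraries. Tab1, the partner of the kinase TAK1, ranked 68.0, 73.4 and 27.9 against 81.6, 76.3 and 82.7. Traf6, the ubiquitin ligase upstream of TAK1, ranked 91.4, 88.6 and 86.5 against 92.6, 92.0 and 95.3.

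Among 10 target genes, 6 had a TSS peak in all libraries and 4 of the 6 did not overlap, beside 30.6% of all genes with middle-aged higher. Whether so small a group differed from that share was not tested. Pmepa1, a negative feedback gene, ranked 89.5, 89.0 and 64.2 in young and 92.1, 90.9 and 94.8 in middle-aged libraries. Junb, an AP-1 factor, ranked 78.1, 79.0 and 53.6 against 80.05, 79.08 and 86.52. Snai1, a transcriptional repressor, ranked 53.1, 66.5 and 28.3 against 74.3, 76.0 and 66.7, and Cdkn1a, a cell cycle inhibitor, 38.4, 35.3 and 9.01 against 54.4, 53.6 and 43.2. In all of these the young 3 value was the lowest, and the margin between the groups was under 1 percentile point for Junb and Snai1. Without young 3 the difference fell from 11.7 to 3.32 for Pmepa1, from 11.6 to 3.31 for Junb, from 23.0 to 12.5 for Snai1 and from 22.9 to 13.6 for Cdkn1a, and, in the groups above, from 25.0 to 13.7 for Ltbp1, from 18.7 to 11.9 for Trim33 and from 23.8 to 9.54 for Tab1. With lists of equal length the ranks of Traf6 (exact permutation p = 0.5), Pmepa1 (0.2), Junb (0.6) and Snai1 (0.2) overlapped, those of Trim33 and Tab1 did not, and Ltbp1, Fbn1 and Cdkn1a no longer had a TSS peak in all 6 libraries. Of all 9971 genes in that setting, 9.51% were separate with middle-aged higher and 3.71% with young higher. In the deposited lists, repressors and ubiquitin ligases (6 of 7 in all libraries) and other receptors and ligand traps (1 of 6) had none without overlap, beside the same 30.6%. Bambi, a pseudoreceptor that blocks the pathway, ranked from 99.6 to 99.9 in all 6 libraries, above every one of the 10 genes, while the matrix proteoglycan genes Dcn, Bgn and Fmod had no TSS peak in any library.

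Among the cell type markers, ranks did not overlap for 1 of 3 SSPC, 1 of 6 hematopoietic and 0 of 1 endothelial markers with a TSS peak in all 6 libraries, all with middle-aged higher, beside the 30.6% of all genes. Pdgfra had a TSS peak in 1 young and 3 middle-aged libraries, and Ebf3 ranked 49.9, 56.9 and 21.6 in young and 70.7, 82.7 and 76.1 in middle-aged libraries. Of the hematopoietic markers, Adgre1 ranked 54.3, 60.6 and 36.5 against 74.6, 70.9 and 67.9, and Csf1r had a TSS peak in 2 young and no middle-aged libraries, a difference that was 0 when peaks within 2 kb of a TSS were counted. The endothelial gene Egfl7 had one in 1 young and 3 middle-aged libraries. Among all genes with any TSS peak, 4.51% had it in at least 2 more middle-aged and 0.178% in at least 2 more young libraries. Whether the mix of cells had a part in the ranks of the TGF-beta genes was not tested.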

How the data were processed

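ATAC-seq libraries of young and middle-aged SSPCs (3 each) were grouped and numbered by the sample titles. The authors aligned reads to mm10 with Bowtie2, removed duplicates with Sambamba and called peaks per library with MACS. Their DiffBind comparison needs reads and was not repeated. For each peak the authors deposited a fold enrichment (a linear ratio at the summit), the −log10 p-value, the −log10 q-value and a whole-number score made from the latter. Relative depth is the genome-wide background solved from deposited fold and p, since read totals are not given in the sources used here.

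TSSs came from GENCODE for mm10 (54361 starts). A TSS peak overlapped 1000 bp either side of a start, a locus was the gene plus 20000 bp upstream, and regions were peaks merged by 1 bp or more. A gene's rank was that of its best TSS peak within its own list. Groups were compared by exact permutation over 20 assignments (smallest two-sided p 0.1) and, for log2 fold in shared regions, with limma 3.58.1 (R 4.3.3, trend, Benjamini-Hochberg), tested on simulated data. The exact p-values are single tests, not adjusted. Named were all 10 genes, list genes whose ranks did not overlap or whose presence differed by at least 2 libraries, and each gene's best region outside its promoter. Members and lists were chosen with earlier results of these data known.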

Additional observations from a re-analysis of the deposited data

How the results depend on the processing

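Relative depth was 1.65 (young 3) to 3.75 (young 1) extended reads per base, and its part in the number of peaks was not tested. Over 45 results and 543 repeats with another setting, 18 turned in direction. Another 12, counts or values without a test, moved by over 1.5 times, by more than the SD between libraries or by more than 1 library. The remaining 513 did neither. They include counts without a direction and some differences that fell to 0, such as the locus peaks of Tgfbr1 and Smad2 with equal lists. Sizes could change within the 513, and the exact tests could not pass 0.05 under any setting. Lists cut to the length of the shortest took the median TSS rank difference of the 10 genes from 6.38 to 0.090, the genes without overlap from 2 to 0 and the gain in locus peaks from 14.3 to 2.33, the lists having been made equal by construction. They also turned Tgfbr3 (rank −6.35, locus peaks −0.67), Smad2 (−0.11) and Egfl7 (−33.3% of libraries), and took Lrrc32 from 66.7% to 0. Ranking by fold left 0 genes without overlap and turned Tgfbr1 (−0.42); the cause was not tested. Leaving out 1 library gave 2 to 5 genes without overlap (5 without young 2), a median difference of 3.10 (without young 3) to 9.18 and a locus gain of 8 (without young 3) to 19.5. Groups of 2 and 3 libraries separate more readily than groups of 3 and 3. The share over all genes was computed only without young 3 (32.7% with middle-aged higher), so the count of 5 has no share beside it. Leaving out 1 library turned Tgfbr2 (range −1.38 to 1.18) to 1.18 without young 3 and 1.06 without middle-aged 1, Smad4 (range −0.52 to 0.31) to 0.31, 0.24 and 0.19 without young 3, middle-aged 2 and middle-aged 3, and Tgfbr3 to −3.06 without young 3. No region of the 10 loci was called by limma under any setting (0 of 19 to 35 tested). Over all regions 1 was called, 0 to 4 with 1 library left out (0 without middle-aged 1 or 3, 2 without young 3, 4 without young 2) and 2 without centring. With 1 library left out, the log2 difference ran from −0.10 (without young 2) to 0.099 at the Tgfb1 promoter, from −0.061 (without young 3) to 0.11 in the Tgfb1 intron, from −0.22 to 0.051 (without middle-aged 3) in the Tgfbr2 intron and from −0.45 (without young 1) to −0.17 (without middle-aged 1) in the Smad3 intron. It also turned at the promoter without middle-aged 3 (−0.052), in the Tgfb1 intron without middle-aged 2 (−0.035) and in the Tgfbr2 intron without young 3 (0.019) or without centring (0.13). Same-numbered libraries did not deviate together (r = 0.0116, 0.0115 and −0.0185 over 22403 regions), which gave no sign that the numbers pair them. Pairing is not excluded, because library medians were set equal first and an effect on a whole library would not show. With the replicate block 0 regions of the family were called, the median rank difference stayed 6.38, and the smallest exact p was 0.25.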
